A study of Mus musculus with 6 samples.

Results

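The genes described here are the 35 genes of DNA synthesis, deoxynucleotide supply and E2F control named for this account, in mouse blood progenitor cells that had been grown with or without mD1R. Each gene was represented by the brightest probe set that the platform annotation assigns to it alone, and 34 of the 35 had one. Chaf1a had no probe set with 1 symbol and is not analysed here. All 34 lay above the filter on dim probe sets, so all were tested among 12320 named genes.

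Bone marrow of C57BL/6J mice gave the starting cells, sorted as c-Kit+Sca-1+Lin- (KSL), a phenotype that includes blood stem cells and their earliest progeny. The culture lasted 7 days on a feeder layer of HUVECs (human umbilical vein endothelium), in medium free of serum that held mouse cytokines of 5 types, and KSL cells were sorted again before RNA was extracted. The groups were 3 arrays of cells grown with PBS, the vehicle, and 3 of cells grown with mD1R, labelled as biological replicates. The cytokines and the feeder cells were the same in both groups. The labels do not expand the name mD1R. Knowledge of the study has it as an engineered piece of the Notch ligand Delta-like 1 that homes to endothelium. The comparison asks how gene activity differed between re-sorted KSL cells from the 2 cultures.

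DNA replication begins when a cell that has been licensed in G1 passes into S phase. Cyclin E with its kinase releases E2F factors from the Rb family, and E2F factors switch on the genes for deoxynucleotide synthesis, for the polymerases and for the proteins that travel with the replication fork. E2F1, E2F2 and E2F3 are the activating members. E2F7 and E2F8 are atypical members that repress the same genes later in S phase and are themselves E2F targets. The messenger RNAs of these genes are abundant in cycling progenitors and low in resting stem cells. In a bulk sample, fewer cells in S phase and less of each RNA per cell cannot be told apart.

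With mD1R, 20 of the 34 measured genes fell and 0 rose (limma, adjusted p below 0.05 over all 27022 probe sets tested). Among all named genes, 7.09% were called lower and 8.49% higher. The largest fall was in Tk1, the salvage thymidine kinase, which was 5.13-fold lower. It was followed by E2f8 (5.05-fold), E2f2 (4.72-fold), the DNA ligase gene Lig1 (4.58-fold) and the cyclin gene Ccne2 (4.33-fold). The median log2 change of the 34 genes was -1.22, against 0.090 for all named genes. In 29 of the 34, all mD1R arrays lay below all PBS arrays, which was the case for 18.1% of all named genes. The changes of 32 genes were negative, and the other 2 were E2f1 (0.083) and E2f3 (0.10).

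**Figure D1:**
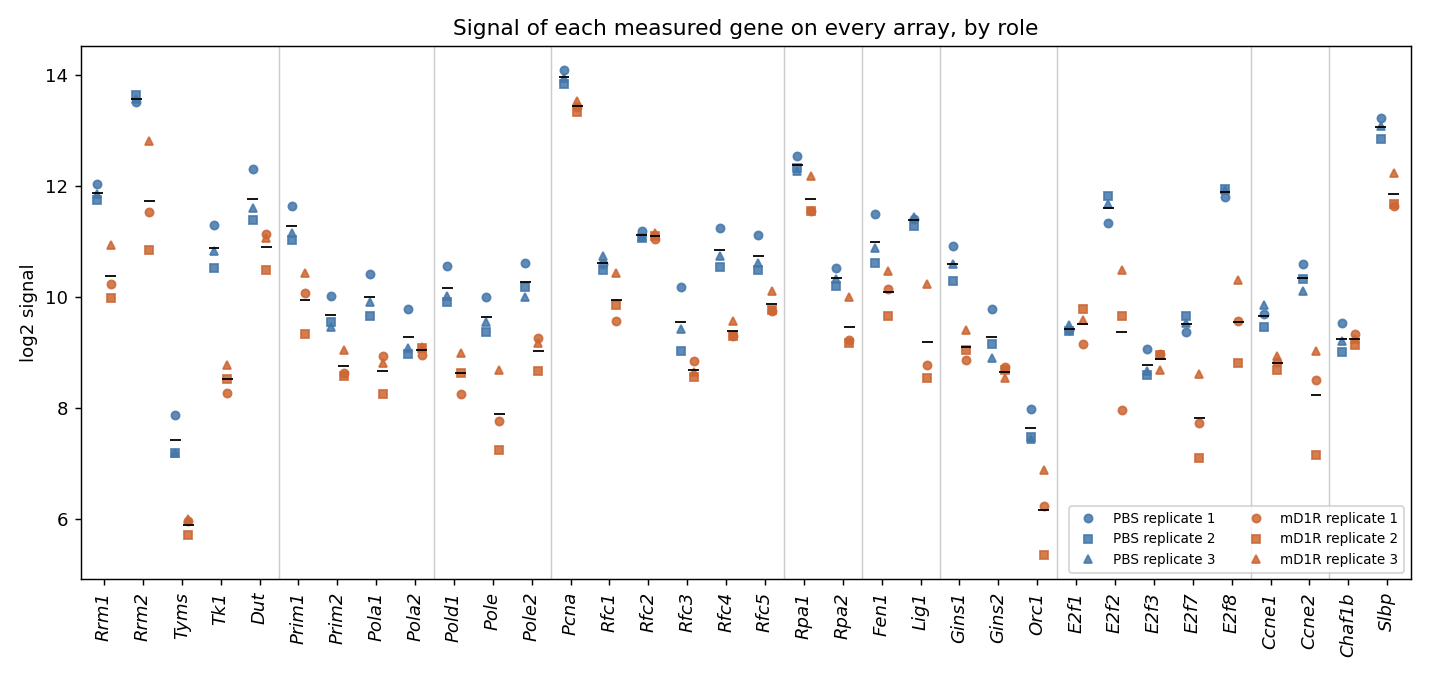
Log2 signal of the 34 measured genes on each of the 6 arrays, with PBS in blue, mD1R in orange, 1 symbol per replicate and a short black bar for each group mean; vertical lines separate the roles. The groups are apart in 29 genes, and the exceptions are Pola2, Rfc2, E2f1, E2f3 and Chaf1b.

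The number of calls depended on single arrays, while between 29 and 32 of the 34 changes were negative whichever array was left out. The genes that fell numbered 5 without PBS replicate 1 (Tk1, Pold1, Rfc4, Gins1 and E2f8), 4 without PBS replicate 2 (the same genes other than Pold1) and 0 without PBS replicate 3. They numbered 13 without mD1R replicate 1, 4 without mD1R replicate 2 (Tk1, Rfc4, E2f8 and Ccne2) and 25 without mD1R replicate 3. The share of all probe sets called lower moved too, from 6.5% with all arrays. It was 2.11%, 0.785% and 0% without PBS replicates 1, 2 and 3. Without mD1R replicates 1, 2 and 3 it was 4.16%, 1.37% and 11.3%. Without PBS replicate 3 no probe set at all passed in limma, although 5853 of 27022 had an unadjusted p below 0.05, and 28 of the 34 genes were lower at that unadjusted level. The median change over the 34 genes stayed between -1.35 and -1.04 when each array was left out in turn. Every call of a single gene given below was therefore lost without PBS replicate 3, and most were lost without PBS replicate 1, PBS replicate 2 or mD1R replicate 2.

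The arrays also fall into 2 sets by a hybridisation control added to the samples, the BioB probe sets relative to the mean of the BioC, BioD and cre controls. PBS replicate 1 and mD1R replicates 1 and 2 form the first set, and the other 3 arrays the second. Within the first set the median change of the 34 genes was -1.62 and 33 were lower, and within the second it was -0.69 and 29 were lower. The change was smaller in size in the second set for 33 of the 34 genes. Of all 12320 named genes, 6010 were lower in the first set and 5368 in the second, and 7524 had the smaller change in the second. Each of these values rests on 1 array of 1 group, so they are descriptions. With the set as a block, 20 of the genes fell, 19 of them among the 20 called without it.

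**Figure D2:**
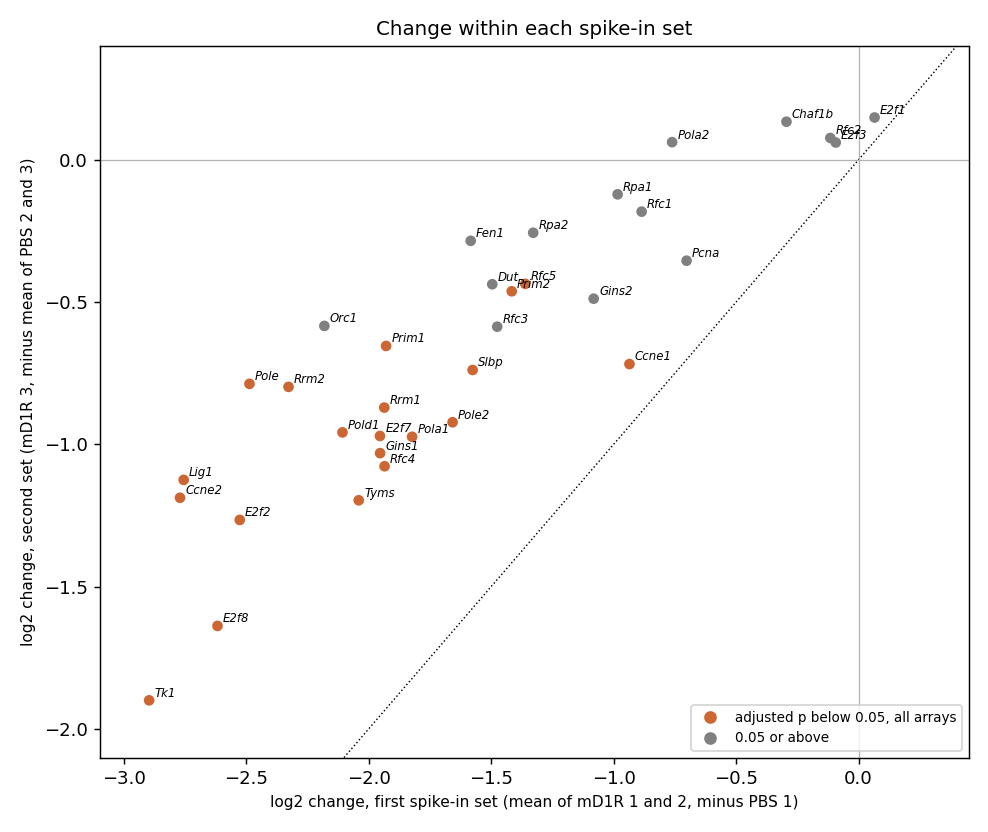
Log2 change of each measured gene (mD1R minus PBS) within the first spike-in set (horizontal) against the second (vertical); the dotted line marks equal change and orange points passed adjusted p 0.05 over all arrays. Tk1 has the largest falls in both sets (-2.90 and -1.90), and 33 points lie closer to 0 on the vertical than on the horizontal axis.

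The start regions of the genes were searched for 3 short motifs. The genes were listed by function, with E2F control as 1 criterion. The shares below therefore describe the list and not the response to mD1R. RefSeq windows (GRCm38.p6) from 250 bases before to 50 after a start site were found for 29 of the 35 genes, 34 windows in all. Prim2, Pole, Rfc2, Gins1, Gins2 and Ccne2 had no window in the table. Of the 34 windows, 20 had their start site within 20 bases of the outer end of the annotated gene. The other 14 had it farther inside. The E2F consensus was searched as TTTCGCGC or TTTGGCGC on both strands. It occurred in 6 of the 34 windows (17.6%), against 0.813% of 32851 windows of all genes. With 2 further spellings, TTTCCCGC and TTTGCCGC, added after the first count was seen, it occurred in 9 windows (26.5%), against 2.26%. A match describes letters, not a site that was shown to be bound.

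The stretches below show those matches with the 11 bases on either side that the window holds. They are written 5′ to 3′ on the strand of the gene, and the matched letters are in capitals. They let the genes that fell be compared with those that did not pass, Rfc3, E2f3 and Orc1.
Pola1, chrX:93632275-93632304, minus strand: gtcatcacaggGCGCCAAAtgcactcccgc
Pold1, chr7:44548766-44548787, minus strand: cgtatcttgtgGCGGGAAAagc
Pole2, chr12:69228162-69228191, minus strand: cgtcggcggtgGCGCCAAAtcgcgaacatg
Rfc3, chr5:151651200-151651229, minus strand: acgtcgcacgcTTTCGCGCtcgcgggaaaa
Lig1, chr7:13278841-13278870, plus strand: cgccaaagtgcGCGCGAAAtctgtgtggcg
E2f2, chr4:136172302-136172323, plus strand: gcggcatatagTTTGGCGCtaa
E2f3, chr13:29986056-29986085, minus strand: ttgaaaagccgGCGGGAAAtctgagtttcg
E2f7, chr10:110745230-110745259, plus strand: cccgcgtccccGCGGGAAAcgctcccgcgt
Orc1, chr4:108579416-108579445, plus strand: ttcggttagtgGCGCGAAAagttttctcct

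In Rfc3 a second match, to TTTCCCGC on the opposite strand, begins at the start site itself and overlaps this stretch. The matches of Rfc3, E2f3 and Orc1 begin 10, 11 and 27 bases before the start site, and those of Pola1 and E2f7 begin 138 and 198 bases before it. Those of Pole2, Lig1, Pold1 and E2f2 begin after the start site, at base 11, 27, 40 and 40. The window of Orc1 belongs to a start site 3749 bases inside the annotated gene, the matching window of Lig1 to one 1651 bases inside and that of Pola1 to one 232 bases inside. Of the 9 genes with a match to any of the 4 spellings, 6 fell. Of the 20 with a window but no match, 10 fell and Chaf1a was not measured. With the first 2 spellings alone, 4 of the 6 genes with a match fell, and 12 of the 23 without, Chaf1a among them.

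The CCAAT box, searched as CCAAT on both strands, occurred in 17 of the 34 windows, against 37.4% of all windows. The cell cycle homology region, searched as TTTGAA on both strands, occurred in 4 windows (11.8%) against 17.9%. The ribonucleotide reductase genes Rrm1 and Rrm2 fell without a match to any of the 4 E2F spellings. In both, the start site of the window lies at the outer end of the gene. Their 250 bases before the start site are shown with the CCAAT boxes in capitals.
Rrm1, chr7:102441445-102441694, plus strand: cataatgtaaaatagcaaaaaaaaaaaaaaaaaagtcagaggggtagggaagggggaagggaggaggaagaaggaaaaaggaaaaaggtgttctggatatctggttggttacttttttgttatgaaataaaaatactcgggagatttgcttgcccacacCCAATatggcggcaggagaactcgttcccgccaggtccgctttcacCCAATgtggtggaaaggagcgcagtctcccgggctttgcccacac
Rrm2, chr12:24708004-24708253, plus strand: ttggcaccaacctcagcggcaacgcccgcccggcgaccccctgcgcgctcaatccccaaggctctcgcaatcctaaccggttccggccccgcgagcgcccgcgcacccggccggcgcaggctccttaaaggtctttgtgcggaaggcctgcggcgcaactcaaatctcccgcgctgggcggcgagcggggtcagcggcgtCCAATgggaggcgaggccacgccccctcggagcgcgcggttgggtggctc

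Rrm1 holds 2 CCAAT boxes and Rrm2 holds 1. The 300-base windows of these genes differ in base composition, with 47.0% G and C in Rrm1 and 71.3% in Rrm2. E2f8, the E2F gene with the largest fall, and E2f1, with a difference close to 0, also have no match to the E2F spellings, but their windows belong to start sites 477 and 466 bases inside the annotated genes. No match says only that these letters are not in the window.

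Of 5 genes of deoxynucleotide supply (Rrm1, Rrm2, Tyms, Tk1 and Dut) 4 fell, with a median change of -1.53 over the 5. Ribonucleotide reductase makes deoxynucleotides from ribonucleotides, with Rrm1 coding for the large subunit and Rrm2 for the small subunit that is made in S phase. Rrm1 had log2 signals of 12.04, 11.74 and 11.85 with PBS and 10.24, 9.98 and 10.93 with mD1R. Rrm1 was 2.83-fold lower, a log2 change of -1.499 ± 0.26 (SE, n = 3 per group, limma adjusted p = 0.0149). Rrm2 had log2 signals of 13.51, 13.63 and 13.56 with PBS and 11.52, 10.84 and 12.80 with mD1R. The PBS arrays of Rrm2 were close together, whereas the mD1R arrays were spread widely, with replicate 3 nearest to PBS. Rrm2 fell by 1.85 ± 0.43 (adjusted p = 0.0322). All 3 further probe sets of these genes that passed the filter also fell, by 1.46 for Rrm1 and by 2.09 and 1.84 for Rrm2.

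The thymidylate genes fell as well. Tk1 had log2 signals of 11.29, 10.53 and 10.83 with PBS and 8.27, 8.52 and 8.78 with mD1R. The groups were separated by more than the whole spread within either, and Tk1 fell by 2.36 ± 0.25 (adjusted p = 0.00961), the smallest p of the 34. It kept its call in 17 of 18 settings, which are the reported fit and 17 alternatives. Tyms codes for thymidylate synthase, which makes the thymidine nucleotide afresh. Its log2 signals of 7.87, 7.18 and 7.19 with PBS and 5.95, 5.71 and 5.99 with mD1R did not overlap, and it fell by 1.53 ± 0.31 (adjusted p = 0.0224). These mD1R signals lay close to the filter on dim probe sets, at 5.27. A brighter probe set, shared by Tyms and its pseudogene Tyms-ps, had a PBS mean of 10.90 against 7.42. It gave -1.09 and did not pass (adjusted p = 0.101). Another probe set of Tyms alone gave -0.72 (adjusted p = 0.217).

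Dut, whose product removes dUTP before it can be built into DNA, had log2 signals of 12.30, 11.39 and 11.60 with PBS and 11.13, 10.48 and 11.06 with mD1R. These groups did not overlap, but PBS replicate 1 stood well above the other PBS arrays, and the difference of -0.87 ± 0.28 did not pass (adjusted p = 0.0829). A second probe set of Dut gave 0.15 and overlapping groups. The 26 measured genes of a wider list of nucleotide metabolism, which covers purine and pyrimidine synthesis and the folate cycle, gave a median change of -0.16. In that list 1 gene fell and 0 rose, the fall being in Dtymk, which codes for thymidylate kinase (-1.01 ± 0.27, adjusted p = 0.0452).

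**Figure D3:**
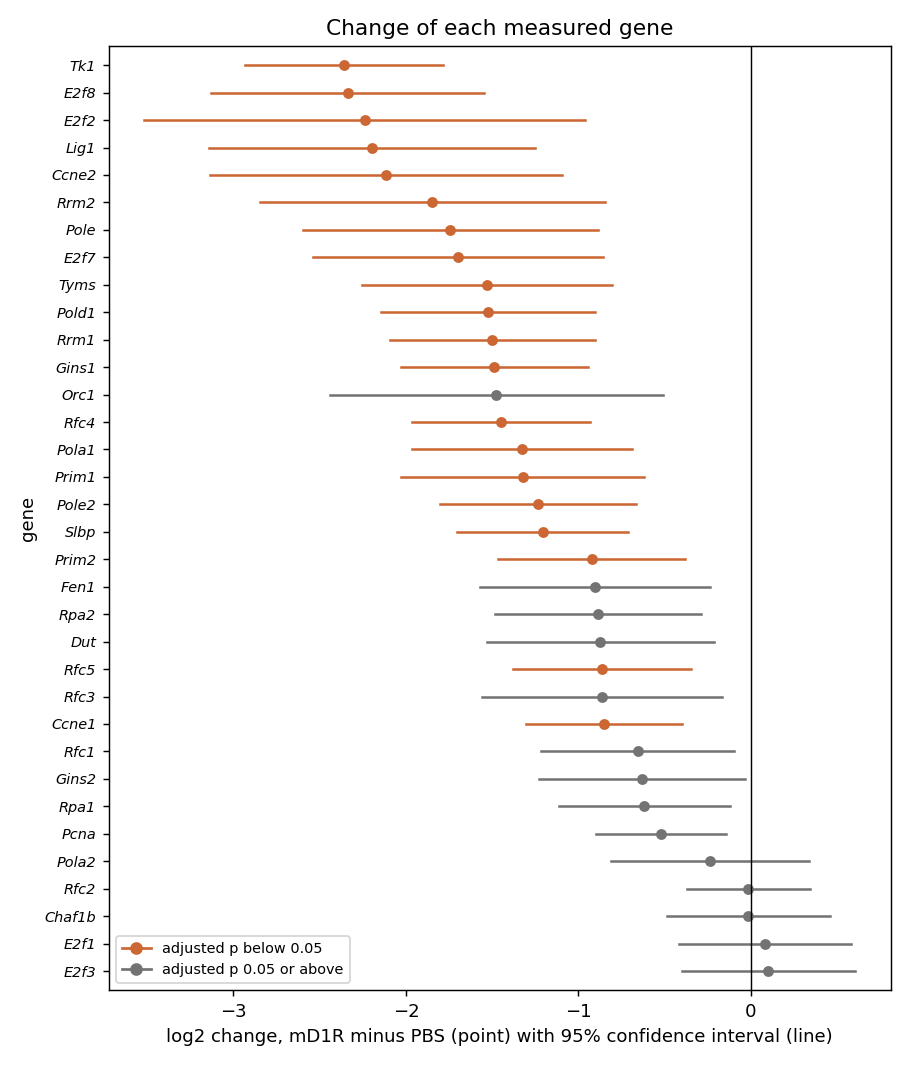
Log2 change of each of the 34 measured genes (mD1R minus PBS, point) with its 95% confidence interval from limma (line), ordered by size; orange marks adjusted p below 0.05. The intervals of Pola2, Rfc2, Chaf1b, E2f1 and E2f3 include 0, while those of 9 further uncalled genes lie below it.

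Polymerase alpha with primase lays down the RNA and DNA primers of each new strand. Of its 4 genes 3 fell. Pola1, the catalytic subunit, had log2 signals of 10.41, 9.65 and 9.90 with PBS and 8.93, 8.25 and 8.80 with mD1R, and fell by 1.33 ± 0.28 (adjusted p = 0.0233). With the mean of its 2 probe sets in place of the brightest, Pola1 gave 0.16 (adjusted p = 0.825), the second probe set lying below the filter with all mD1R arrays above all PBS arrays. The primase genes Prim1 (-1.32 ± 0.31, adjusted p = 0.0307) and Prim2 (-0.92 ± 0.24, adjusted p = 0.0410) fell too. Prim2 kept the call in 10 of 18 settings, and its second probe set gave -0.84 (adjusted p = 0.0870).

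Pola2, the accessory subunit of the same complex, did not pass. It had log2 signals of 9.78, 8.98 and 9.08 with PBS and 8.96, 9.07 and 9.09 with mD1R, so that PBS replicate 1 alone stood above the other 5 arrays. The difference was -0.24 with a 95% confidence interval from -0.81 to 0.34. The difference between Pola1 and Pola2 lay between 0.64 and 0.82 (log2) on the PBS arrays and between -0.82 and -0.025 on the mD1R arrays. For that shift of -1.09 an exact permutation test gave p = 0.1, two-sided, the smallest value that 3 against 3 arrays allow. Such within-array differences were computed for 9 pairs, all chosen after the values were seen and all with an exact permutation p = 0.1 before and after adjustment. They set changes, not levels, against each other.

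Polymerases delta and epsilon copy the bulk of the genome, and 3 of their 8 measured subunit genes fell, Pole, Pole2 and Pold1. Pole, the catalytic subunit of the leading strand polymerase epsilon, had log2 signals of 9.99, 9.37 and 9.55 with PBS and 7.77, 7.25 and 8.68 with mD1R, and fell by 1.74 ± 0.37 (adjusted p = 0.0247). Its accessory subunit gene Pole2 fell by 1.24 ± 0.25 (adjusted p = 0.0206). Pold1, the catalytic subunit of the lagging strand polymerase delta, had log2 signals of 10.55, 9.90 and 10.01 with PBS and 8.25, 8.64 and 8.995 with mD1R. It fell by 1.52 ± 0.27 (adjusted p = 0.0155), and its second probe set fell by 1.21. The other 5 subunit genes, from the list of other fork and origin genes, did not pass. They were Pold2 (-0.79, adjusted p = 0.0806), Pold3 (-0.11), Pole3 (-0.54) and Pole4 (-0.12), and Pold4, which had a positive difference (0.75, adjusted p = 0.119) with all mD1R arrays above all PBS arrays.

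Of the 6 genes of the sliding clamp and its loader 2 fell, and the median change over the 6 was -0.76. Pcna codes for the ring that holds polymerases on DNA. Its log2 signals were 14.08, 13.83 and 13.95 with PBS and 13.43, 13.34 and 13.53 with mD1R. The groups did not overlap, but the difference of -0.52 ± 0.16 did not pass (adjusted p = 0.0742), and its 95% interval ran from -0.90 to -0.14.

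Among the 5 genes of replication factor C, which opens the clamp and loads it, Rfc4 fell by 1.45 ± 0.22 (adjusted p = 0.0120) and Rfc5 by 0.86 ± 0.22 (adjusted p = 0.0428). Rfc4 had log2 signals of 11.23, 10.55 and 10.73 with PBS and 9.30, 9.30 and 9.56 with mD1R, and kept its call in 17 of 18 settings. Rfc1, the large subunit (-0.66), and Rfc3 (-0.86) did not pass, although their groups did not overlap. Rfc2 had log2 signals of 11.19, 11.06 and 11.08 with PBS and 11.04, 11.10 and 11.15 with mD1R. Its difference of -0.014 had a 95% interval from -0.37 to 0.34, and 2 further probe sets gave -0.14 and 0.20. The sign for Rfc2 turned under 4 settings. Within each array, Rfc4 relative to Rfc2 shifted by -1.44, with the PBS arrays between -0.52 and 0.046 and the mD1R arrays between -1.80 and -1.59.

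Replication protein A covers the single strands that the helicase exposes. None of its 3 measured subunit genes passed. Rpa2 had log2 signals of 10.52, 10.19 and 10.33 with PBS and 9.22, 9.16 and 10.003 with mD1R, a difference of -0.88 ± 0.26 (adjusted p = 0.0612). Rpa1 had 12.53, 12.32 and 12.27 with PBS and 11.55, 11.55 and 12.17 with mD1R, a difference of -0.62 ± 0.22 (adjusted p = 0.100). Rpa3, from the list of other fork and origin genes, differed by -0.67 ± 0.21 without overlap (adjusted p = 0.0748). In Rpa1 and Rpa2, mD1R replicate 3 lay just below the lowest PBS array. A second probe set of Rpa1 gave 0.075 with overlapping groups, so the 2 probe sets of Rpa1 disagree.

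Joining of Okazaki fragments, the short pieces of the lagging strand, needs the flap nuclease Fen1 and the ligase Lig1. Lig1 had log2 signals of 11.41, 11.28 and 11.45 with PBS and 8.78, 8.53 and 10.24 with mD1R. The PBS arrays were close together and all mD1R arrays were lower, and Lig1 changed by -2.195 ± 0.41 (adjusted p = 0.0176). Fen1 had 11.49, 10.62 and 10.88 with PBS and 10.15, 9.66 and 10.46 with mD1R, and its difference of -0.90 ± 0.29 did not pass (adjusted p = 0.0794). A second probe set of Fen1 gave -0.52.

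Of Gins1, Gins2 and Orc1, genes of the helicase and of replication origins, Gins1 fell. The GINS complex joins the Mcm ring and Cdc45 to form the active helicase, and Orc1 is the subunit of the origin recognition complex whose supply varies with the cell cycle. Gins1 had log2 signals of 10.91, 10.28 and 10.58 with PBS and 8.86, 9.05 and 9.40 with mD1R, and fell by 1.49 ± 0.23 (adjusted p = 0.0126). Gins2 differed by -0.63 ± 0.26, with 9.78, 9.14 and 8.91 with PBS and 8.73, 8.67 and 8.54 with mD1R (adjusted p = 0.1495). The difference of Orc1 was as large as that of Gins1, at -1.48 ± 0.42, but its arrays were more spread, at 7.97, 7.48 and 7.43 with PBS and 6.24, 5.35 and 6.87 with mD1R, and it did not pass (adjusted p = 0.0558). Orc1 passed in 6 of 17 settings.

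The 40 other fork and origin genes, among them the Mcm helicase, Cdc45 and the licensing factors, were counted in the same way. Of these, 18 fell and 0 rose, with a median of -1.09 and with 29 of the 40 having all mD1R arrays below all PBS arrays. The 4 with the smallest p were Cdc45 (-1.92 ± 0.31), the helicase gene Mcm5 (-1.99 ± 0.33), the kinase activator Dbf4 (-1.32 ± 0.24) and the licensing inhibitor Gmnn (-1.12 ± 0.20). Their adjusted p-values in limma ran from 0.0127 to 0.0165.

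Of 8 measured E2F factors, 3 fell, E2f2, E2f7 and E2f8, and the other 5 did not pass. E2f8 had log2 signals of 11.80, 11.94 and 11.93 with PBS and 9.56, 8.80 and 10.30 with mD1R. It fell by 2.34 ± 0.34 (adjusted p = 0.0113) and kept the call in 16 of 18 settings. E2f7, the other atypical repressor, had 9.37, 9.65 and 9.52 with PBS and 7.72, 7.10 and 8.61 with mD1R, and fell by 1.70 ± 0.37 (adjusted p = 0.0254). In both genes the PBS arrays were close together and the mD1R arrays took the same order, with replicate 2 lowest and replicate 3 highest.

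The activator E2f2 fell as far as E2f8 but with a wider spread. It had log2 signals of 11.34, 11.81 and 11.67 with PBS and 7.97, 9.65 and 10.47 with mD1R, and fell by 2.24 ± 0.55 (adjusted p = 0.0372). Here replicate 1 of mD1R was the lowest array. A second probe set of E2f2 fell by 2.63 (adjusted p = 0.0160).

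E2f1 and E2f3, the other activators, gave small positive differences. E2f1 had log2 signals of 9.40, 9.38 and 9.49 with PBS and 9.15, 9.79 and 9.58 with mD1R. Its difference was 0.083, with a 95% interval from -0.42 to 0.58. E2f3 had 9.06, 8.59 and 8.66 with PBS and 8.97, 8.95 and 8.69 with mD1R. Its difference was 0.10, with an interval from -0.40 to 0.60, and the groups of both genes overlapped. Further probe sets gave -0.041 for E2f1 and 0.053 for E2f3. A fall of the size seen in E2f2, E2f7 or E2f8 lies outside these intervals, whereas smaller changes in either direction lie within them. The sign turned for E2f1 without mD1R replicate 2 (-0.059) and for E2f3 with the spike-in set as a block (-0.016).

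The remaining E2F factors, from the list of E2F partners and regulators, are the repressors E2f4 (0.18), E2f5 and E2f6 (-0.088). E2f5 had log2 signals of 7.79, 7.37 and 7.396 with PBS and 9.12, 8.81 and 7.81 with mD1R. All mD1R arrays of E2f5 lay above all PBS arrays, but the difference of 1.06 ± 0.36 did not pass (adjusted p = 0.0912).

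Set against E2f1 within each array, E2f2 shifted by -2.32, E2f7 by -1.78 and E2f8 by -2.42. For E2f8 the difference from E2f1 lay between 2.40 and 2.57 on the PBS arrays and between -0.99 and 0.72 on the mD1R arrays. Against E2f3 the shifts were -2.34, -1.80 and -2.44. In each of these 6 pairs the PBS and mD1R arrays did not overlap, and each exact permutation p was 0.1, the smallest possible. The pairs were chosen after the values were seen, so these results describe the genes and are no separate test of a split among them.

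**Figure D4:**
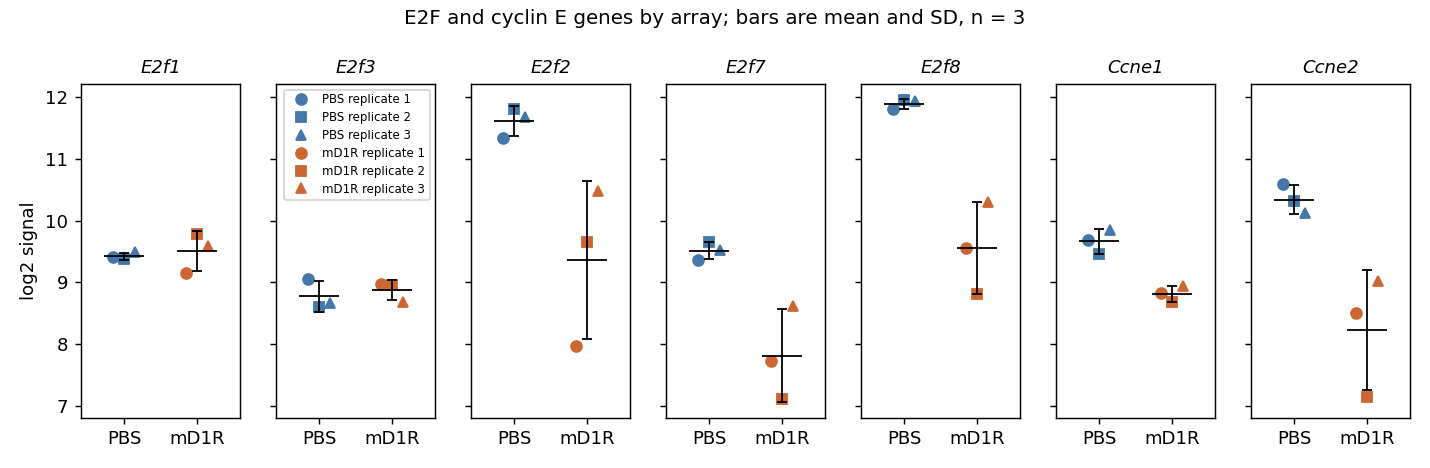
Log2 signal of the E2F and cyclin E genes on each array, PBS in blue and mD1R in orange, with the mean and SD of each group of 3 in black. E2f1 and E2f3 overlap between groups, while E2f2, E2f7, E2f8, Ccne1 and Ccne2 do not.

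Both cyclin E genes fell, by different amounts. Ccne2 had log2 signals of 10.59, 10.31 and 10.11 with PBS and 8.498, 7.15 and 9.03 with mD1R, and fell by 2.12 ± 0.44 (adjusted p = 0.0235). Ccne1 had 9.68, 9.45 and 9.84 with PBS and 8.82, 8.68 and 8.93 with mD1R. It fell by 0.85 ± 0.20 (adjusted p = 0.0307), with a spread among mD1R arrays of 0.13 (SD) against 0.97 for Ccne2. A second probe set of Ccne1 fell by 1.15.

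Of 20 partners and regulators of E2F, 8 fell and 0 rose, with a median of -0.71. The 4 with the smallest p were the S and G2 phase cyclin gene Ccna2 (-1.79 ± 0.23), the phosphatase gene Cdc25a (-1.92 ± 0.26), the E2F dimer partner gene Tfdp1 (-1.67 ± 0.24) and the Rb family gene Rbl1 (-1.04 ± 0.19). Their adjusted p-values ran from 0.0104 to 0.0175.

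Slbp codes for the protein that binds the stem loop of histone messenger RNA. Its log2 signals were 13.23, 12.84 and 13.08 with PBS and 11.63, 11.68 and 12.22 with mD1R. Slbp fell by 1.21 ± 0.21 (adjusted p = 0.0159), and a second probe set fell by 1.80. Chaf1b, a subunit of the chaperone that places histones on new DNA, had 9.52, 9.01 and 9.21 with PBS and 9.32, 9.13 and 9.24 with mD1R. Its difference of -0.014 had a 95% interval from -0.49 to 0.46, and its sign turned in 3 settings. Slbp relative to Chaf1b lay between 3.71 and 3.87 on the PBS arrays and between 2.31 and 2.98 on the mD1R arrays.

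Among 12 measured genes that link replication to chromatin, 4 fell and 0 rose, with a median of -0.63. These were the deubiquitinase gene Usp1 (-1.05 ± 0.17), the histone chaperone gene Asf1b (-1.99 ± 0.33), the hemimethylated DNA reader gene Uhrf1 (-2.17 ± 0.38) and the histone chaperone gene Nasp (-0.89 ± 0.20). Their adjusted p-values ran from 0.0134 to 0.0292.

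**Figure D5:**
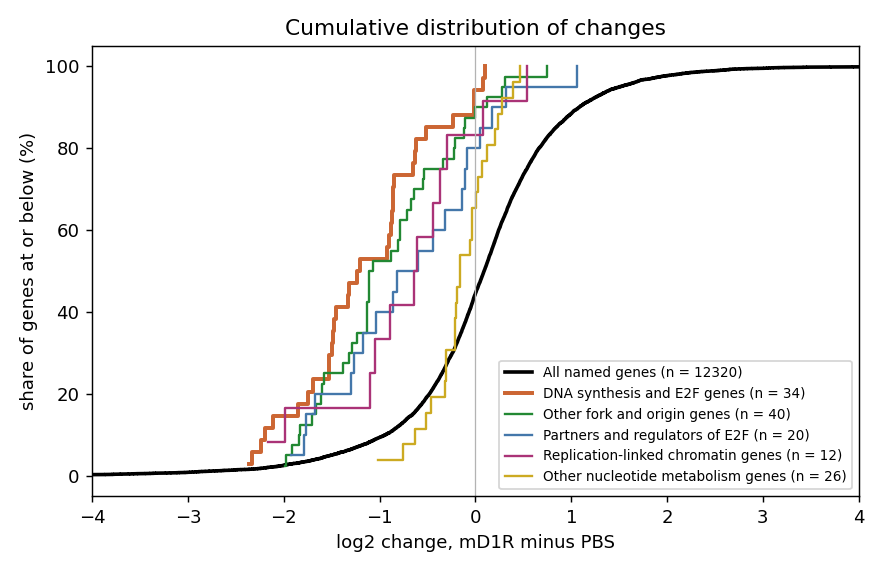
Cumulative share of genes (vertical, percent) at or below each log2 change (mD1R minus PBS, horizontal) for the 34 measured DNA synthesis and E2F genes, 4 related lists and all 12320 named genes. The medians are -1.22 for the 34 genes, -1.09 for other fork and origin genes, -0.16 for other nucleotide metabolism genes and 0.090 for all named genes.

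Arrays within a group ranked in a regular way. PBS replicate 1 was the highest PBS array in 26 of the 34 genes, and PBS replicate 2 the lowest in 24. The genes in which PBS replicate 1 was not highest were Rrm2, Rfc1, Lig1, Ccne1, E2f1, E2f2, E2f7 and E2f8. Replicate 3 of mD1R was the highest mD1R array in 26 genes and lay nearest to the PBS mean in 28. Its median distance from the PBS mean was -0.80, against -1.35 for the mean of mD1R replicates 1 and 2. The same ranks were not counted over all genes. Over all probe sets, PBS replicate 1 also had the highest median log2 signal of the PBS arrays (6.42, against 6.19 and 6.07). Replicate 3 had the highest of the mD1R arrays (6.27, against 6.24 and 6.16). Whether the ranks are particular to these genes was not tested.

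A second reading of the same RNA came from 37 further probe sets, which 27 of the 34 genes had. Of these, 25 passed the filter. They had 21 negative and 4 positive changes, and 9 were called lower and 0 higher, against 6.5% of all probe sets called lower. The 9 all belonged to genes whose brightest probe set had fallen, which had 13 such probe sets. None of the 12 further probe sets of uncalled genes passed.

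Markers of mitosis, of stem and progenitor cells and of other cell types moved between the groups as well. All 13 measured mitosis markers fell, with a median of -1.80, and their summed linear signal was 49336 to 62280 with PBS and 12624 to 22436 with mD1R, highest among the mD1R arrays in replicate 3. Mast cell and basophil markers rose in 10 of 12 genes tested (0 fell), with summed signals of 14529 to 23232 and 67700 to 100237. Macrophage markers rose in 4 of 8, with sums of 51712 to 57306 and 80025 to 119226. Of 11 neutrophil markers 1 fell, Mmp9, and their sum was 273403 to 343902 with PBS and 35123, 131767 and 337187 in mD1R replicates 1, 2 and 3. Of 7 lymphoid markers tested 3 fell, Dntt (-3.42), Ebf1 (-2.92) and Igll1 (-3.09), and 1 rose, Il7r (2.24). The other changes were negative, 6 of 7 in all. Rag2 and Pax5, below the filter, were also lower. The sums over the 9 genes with a probe set were 6578 to 12627 with PBS and 6389 to 18269 with mD1R. With mD1R the sum was mostly Il7r, whose log2 signals were 14.13, 13.08 and 12.43. Of 5 erythroid markers 2 fell, with sums of 3024 to 13062 and 2260 to 3316, and PBS replicate 1 at the top. Of 8 stem and progenitor markers 3 rose, Cd34 (1.98), Procr (3.01) and Gata2 (2.22), and 1 fell, Flt3 (-2.08). Gata2 is also on the mast cell list. Of the 8 changes 2 were negative, the other being Hlf (-0.56), which did not pass although its groups did not overlap. The sums were 3161 to 4111 with PBS and 12105 to 16979 with mD1R. Of 3 mouse endothelial markers tested 1 rose, Pecam1 (1.41), while Vwf (2.11) and Kdr (0.79) did not pass. Cdh5, Tek and Tie1 lay below the filter. Cdh5 differed by -2.65, with all mD1R arrays below all PBS arrays, and Tek by 0.12 and Tie1 by -0.013. The sums over the 6 genes were 697 to 1570 with PBS and 1900 to 4184 with mD1R, Vwf being the brightest on each mD1R array. Each sum covers all listed genes with a probe set, also those below the filter. Of these markers 1, Rag1, was listed at 0 on an array. The part of these shifts in the changes of the DNA synthesis genes was not tested.

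Of the genes of the gate, 5 were tested and none passed. Kit had log2 signals between 8.85 and 9.97 with PBS and between 9.58 and 11.37 with mD1R (adjusted p = 0.109). The other 4 had negative differences: Ptprc (-0.34), Itgam (-0.33), Cd3e (-1.41) and Cd8a (-0.40). In Cd3e all mD1R arrays lay below all PBS arrays. The log2 signals of Itgam lay between 11.56 and 12.31 over all arrays. Cd4 lay below the filter. Ly6a, which codes for Sca-1, is not analysed here, since none of its probe sets carried 1 symbol alone. Over all probe sets, the median log2 signal was 6.07 to 6.42 per array.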

How the data were processed

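RNA was hybridised to 6 Affymetrix arrays. The authors deposited log2 signals (45101 probe sets, 64 of them controls), made with MAS5 per the submitters' processing notes, with no version. Each array has a 2% trimmed mean of 500 on the linear scale. The platform annotation gave 34945 probe sets 1 symbol, 932 several and 9160 none. Detection calls were not used here.

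The fit used limma 3.58.1 (R 4.3.3, lmFit and eBayes, variance trend, two-sided) on the deposited values, over the 27022 probe sets whose mean log2 signal reached 5.27, the 40th percentile. Adjustment followed Benjamini and Hochberg over all of them, at a threshold of 0.05. Confidence intervals are from the same fit. The code was tested on simulated data in which 200 of 27022 probe sets were changed. The fit found 3.4% of log2 changes of 1 and 38.6% of changes of 2. The simulation changed fewer probe sets than were called in the data, so these shares need not hold there. A gene that did not pass may still differ. Every measured gene is named, and of each related pathway list up to 4 called genes with the smallest p. Further subunits of polymerases delta and epsilon and of replication protein A, and further E2F factors, were named after their values were seen. The genes, lists and tests were chosen with earlier results of these data known. Alternatives covered scaling, offset, filter, variance model, array weights, blocks, probe set choice and leaving out each array. Precision is limited by the number of arrays: over all probe sets the standard error had a median of 0.31.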

Additional observations from a re-analysis of the deposited data

How the results depend on the processing

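The median change of the 34 measured genes stayed negative, between -1.35 and -1.04, in all alternatives run: scaling, offset, filter, variance model, array weights, blocks, the mean of a gene's probe sets and leaving out each array. The number of genes called higher was 0 in all of them. The number called lower lay between 14 (no variance trend) and 26 (array weights), against 20, apart from leaving out arrays, where it lay between 0 and 25. The count over all probe sets, 3413, became 2213 with no variance trend, 6508 with array weights and between 0 and 5565 when 1 array was left out. Replicate numbers are shared between the groups. Same-numbered arrays deviated together with correlations of 0.31, 0.028 and 0.13, and not every array correlated best with its own number. With so few arrays per group, these correlations cannot decide whether the numbers pair the samples. With the replicate number as a block 24 of the genes fell and 4619 probe sets were called.

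Among single genes, the sign turned in 5 uncalled genes and 1 called gene: Chaf1b (0.071 with array weights, between -0.13 and 0.12 when 1 array was left out), E2f1 (between -0.059 and 0.26 when 1 array was left out), E2f3 (-0.016 with the spike-in set as a block), Pola2 (between -0.39 and 0.011 when 1 array was left out), Rfc2 (0.013 with array weights, 0.017 with the mean of its probe sets, between -0.041 and 0.023 when 1 array was left out) and Pola1 (0.16 with the mean of its probe sets).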
